A study of Mus musculus with 17 samples.

Results

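The genes of S phase and DNA replication are described here in sorted mouse epidermal stem cells: 55 genes, of 48820 gene identifiers counted, that were taken from a list by the step of DNA replication each gene product serves. They comprise 11 genes of origin licensing, 6 of helicase activation, 9 of the DNA polymerases and primase, 6 of the sliding clamp and its loader, 5 of single-strand binding and lagging-strand joining, 6 of nucleotide supply, 4 of chromatin and histone supply, 6 E2F and cyclin E genes, and 2 others. Of the 55, 54 held enough counts to be tested. The remaining gene, Fen1, which encodes the flap endonuclease of the lagging strand, reached 14 counts at most and was at 0 in 11 of 17 libraries. Of the exonic length of Fen1, 84.2% is shared with genes on the opposite strand, Gm10143 and Tmem258, so its low count says little about its transcript.

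GFP+ cells were sorted from the epidermis of C57BL/6 mice aged 3 months, and the RNA of 1000 cells a library was sequenced with a full-length method. All mice had been treated with 4-OHT, the active metabolite of tamoxifen, and all carried EGFP-CreERT2, an inducible recombinase joined to a green fluorescent reporter, at the Lrig1, Lgr5 or Lgr6 locus. The recombinase and the reporter are thus made only where that receptor's locus is active, and the 3 populations come from 3 different lines of mice. The groups labelled WT carried 1 floxed Pelo allele (Pelo fl/+) and the groups labelled Pelo -/- carried both floxed (Pelo fl/fl). Pelo encodes Pelota, which releases stalled ribosomes. WT Lrig1 had 2 libraries, and Pelo -/- Lrig1, WT Lgr6, Pelo -/- Lgr6, WT Lgr5 and Pelo -/- Lgr5 had 3 each. The labels do not say whether the libraries of a group came from separate mice, so the tests measure only the spread between these libraries.

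DNA replication starts when the origin recognition complex, with Cdc6 and Cdt1, loads the Mcm2-7 helicase onto origins. Cdc45 and the GINS complex then switch the helicase on, and primase, the polymerases, the clamp Pcna and the ligase copy both strands with deoxynucleotides from ribonucleotide reductase and thymidylate synthase. Transcription of most of these genes is driven by E2F factors as a cell enters S phase, so their transcripts are widely used as a sign of cycling cells. In the resting hair follicle, Lgr5+ cells of the bulge and germ are largely quiescent, whereas Lrig1+ and Lgr6+ cells lie in the upper follicle and its junction with the epidermis.

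Promoter sequences were read from RefSeq (GRCm38.p6) for 46 of the 55 genes. Those of Tyms, Mcm5 and Mcm6 are shown, because these genes passed the test in each comparison of Lrig1 or Lgr6 cells with Lgr5 cells. Gins2, which also passed in each, has no promoter shown here. Each line holds the 250 bases before the annotated start, on the gene's own strand, 5′ to 3′. Capitals mark the E2F words TTTCCCGC, TTTCGCGC, TTTGCCGC and TTTGGCGC and the CCAAT word, on either strand, and matches that overlap run together.
Tyms, chr5:30073626-30073875, minus strand: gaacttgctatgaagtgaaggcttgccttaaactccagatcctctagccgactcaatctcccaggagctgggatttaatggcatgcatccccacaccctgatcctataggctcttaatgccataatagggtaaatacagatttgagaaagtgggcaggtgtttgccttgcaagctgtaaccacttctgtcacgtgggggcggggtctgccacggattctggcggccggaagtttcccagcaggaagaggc
Mcm5, chr8:75109259-75109508, plus strand: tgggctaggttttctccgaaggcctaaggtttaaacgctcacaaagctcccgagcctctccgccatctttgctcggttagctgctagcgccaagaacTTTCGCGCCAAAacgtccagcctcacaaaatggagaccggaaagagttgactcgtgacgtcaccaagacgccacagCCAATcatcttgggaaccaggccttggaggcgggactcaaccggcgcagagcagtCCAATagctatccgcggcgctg
Mcm6, chr1:128359706-128359955, minus strand: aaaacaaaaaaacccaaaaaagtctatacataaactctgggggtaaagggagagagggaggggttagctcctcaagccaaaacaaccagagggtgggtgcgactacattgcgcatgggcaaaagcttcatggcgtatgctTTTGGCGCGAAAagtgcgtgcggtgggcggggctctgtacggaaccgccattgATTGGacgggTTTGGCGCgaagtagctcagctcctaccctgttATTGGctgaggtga
The Mcm5 promoter holds 2 overlapping E2F words, the first at -153 to -146 from the start, and a CCAAT word at -77 and at -22. The Mcm6 promoter holds 2 overlapping E2F words from -110 and 1 more at -47, and the CCAAT word at -57 and at -14 on its other strand. The Tyms promoter holds none of these words in this window.

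An E2F word occurred in 10 of the 46 promoters (21.7%) and in 583 of 27025 promoters of the same length over the genome (2.16%). The CCAAT word occurred in 28 of the 46 (60.9%) and in 37.5% of all promoters. The words TTTGAA and TTCGAA of the CHR element, found in many G2 and mitosis genes, occurred in 11 of the 46 (23.9%) and in 19.6% of all. E2F words stood before 3 of 11 genes that were higher in Lrig1 or Lgr6 cells in at least 1 comparison below, and before 7 of 35 of the others. A match describes these letters and is not evidence that a factor binds there.

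The 17 libraries held 9647507 to 28098841 counts. The Lgr5 libraries stood apart from the rest: their total counts were 9647507 to 17219054 against 13333497 to 28098841, and their TMM scaling factors 0.990 to 1.91 against 0.688 to 0.964. The factors of WT Lgr5 replicate 3 (1.91) and Pelo -/- Lgr5 replicate 3 (1.59) were above 1.5. The share of mitochondrial counts was 3.69 to 15.3% in the Lgr5 libraries and 4.66 to 7.68% elsewhere. Lgr5 itself was at 275 to 569 CPM (counts scaled to a common library size) in the Lgr5 libraries and 0.0531 to 29.4 CPM elsewhere, and basal keratin Krt14 was at 140 to 836 against 4625 to 10555 CPM. Lrig1 was at 7.42 to 60.0 CPM in the Lrig1 and Lgr6 libraries and 10.1 to 18.1 CPM in the Lgr5 libraries, ranges that overlap, and Lgr6 at 58.3 to 197 against 17.6 to 108 CPM. Pelo transcripts did not separate the genotypes: in Lgr5 cells Pelo was at 17.4, 5.89 and 17.2 CPM in the WT libraries and 11.8, 23.6 and 15 CPM in those labelled Pelo -/-. In Lgr6 cells it was at 4.11, 5.39 and 2.02 against 3.10, 4.93 and 4.19 CPM, and in Lrig1 cells at 6.05 and 3.72 against 3.81, 0.482 and 0.856 CPM. The labels do not give the floxed exons, so a count over the whole gene need not show the deletion, and Pelo -/- below names the label.

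Marker genes of other cells also differed between the Lgr5 libraries and the rest. The 8 melanocyte genes summed to 63.9 to 333 CPM in Lgr5 libraries against 12.7 to 39.4 CPM, the 8 fibroblast genes to 38.2 to 69.9 against 1.54 to 23.1, and the 8 endothelial genes to 12 to 30.5 against 3.08 to 14.3. The 8 Langerhans cell and macrophage genes summed to 3.97 to 17.4 CPM in Lgr5 libraries against 46.9 to 446, and the 8 T cell genes to 3.46 to 13.6 against 14.2 to 71.6. In each of the 4 comparisons with Lgr5 cells, 2 of the 8 Langerhans cell and macrophage genes and 1 of 7 tested T cell genes were higher in Lrig1 or Lgr6 cells, and 1 fibroblast gene and 1 to 4 melanocyte genes were lower. Of all genes, 5.77 to 10.6% were called higher and 1.57 to 2.72% lower in these comparisons. The higher immune genes were Cd74 (0.268 to 1.09 CPM in Lgr5 libraries against 32.4 to 330 elsewhere), H2-Aa (0.0640 to 1.25 against 10.03 to 103) and Thy1 (0.512 to 3.40 against 12.4 to 40.2). The Langerhans cell gene Cd207 was at 0.117 to 2.23 against 0.106 to 5.12 CPM, and Trdc of gamma-delta T cells at 0.448 to 4.16 against 0.0517 to 10.4 CPM. Lyz2 of macrophages was at 0 to 0.706 against 0 to 1.13 CPM, and Trac of T cells at 0 to 0.229 against 0 to 0.664 CPM. The 8 Merkel and neural genes summed to 9.73 to 21.5 CPM in Lgr5 libraries against 23.2 to 71.4. The part of these markers in the results below was not tested.

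All the tested genes were detected in every population, and their levels differed widely from gene to gene. Per kilobase of exon, the mean level over the 17 libraries was highest for Pcna at 96.2 CPM per kb, the single-strand binding subunit Rpa3 at 64.2, the licensing inhibitor Gmnn at 29.2, the clamp loader Rfc4 at 27.9 and the origin subunit Orc6 at 23.0. It was lowest, among tested genes, for the repressor E2f7 at 0.423, the chromatin assembly subunit Chaf1a at 0.555 and Mcm10 at 0.807 CPM per kb. Pcna is uncertain, because its processed pseudogene Pcna-ps2 on chromosome 19 took 61455 counts in all and read 33.6 to 321 CPM per library. Summed over the genes, the TMM-scaled level was 1497, 2104 and 528 CPM in the WT Lgr5 group and 1534, 915 and 733 CPM in Pelo -/- Lgr5 libraries. It was 2576 and 2248 CPM in WT Lrig1, 2245, 1820 and 1988 in Pelo -/- Lrig1, 2192, 2353 and 2090 in WT Lgr6, with 2609, 2352 and 2091 in Pelo -/- Lgr6. WT Lgr5 replicate 2 lay within the range of the Lrig1 and Lgr6 libraries, and the other 5 Lgr5 libraries lay below it.

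**Figure D1:**
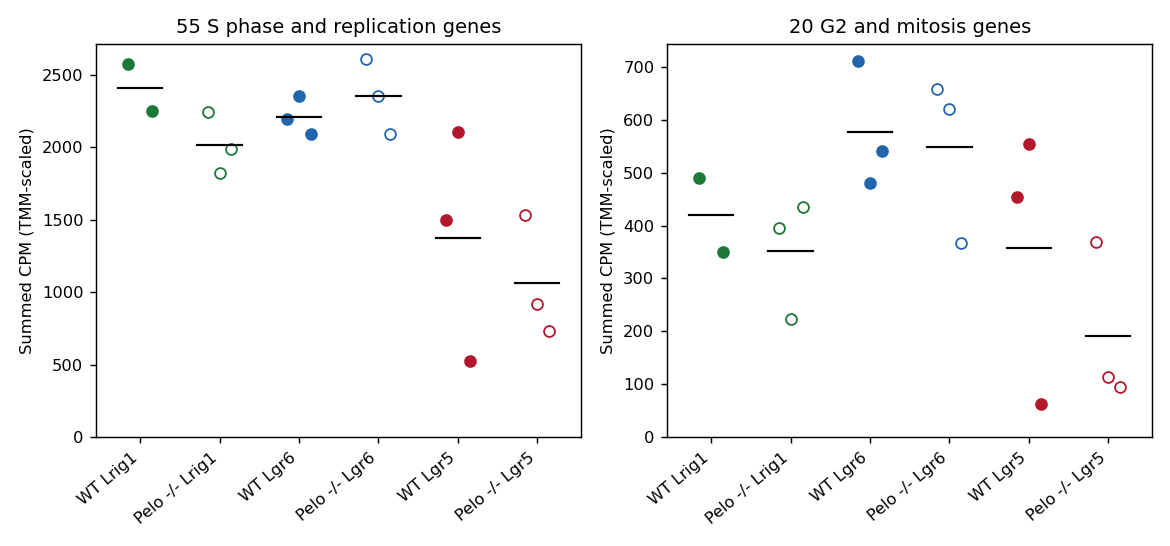
Summed level of the 55 replication genes in each of the 17 libraries, in CPM after TMM scaling. The Lgr5 libraries span 528 to 2104 CPM and the Lrig1 and Lgr6 libraries 1820 to 2609 CPM.

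This order depended on the scaling. As a plain share of all counts, with no TMM factor, the genes took 0.198, 0.292 and 0.101% of the WT Lgr5 libraries and 0.152, 0.123 and 0.116% of the Pelo -/- Lgr5 libraries, against 0.144 to 0.218% in the 11 others. WT Lgr5 replicate 2 then had the highest share of the 17 libraries. The genes also varied more between the libraries of an Lgr5 group than elsewhere. Over the 48 of them with a mean of at least 5 CPM, the median SD of log2(CPM + 0.5) was 1.10 in WT Lgr5 and 0.84 in Pelo -/- Lgr5, against 0.77 and 0.60 over all 11061 genes of that level. In the other 4 groups it was 0.29 to 0.42 for the replication genes and 0.29 to 0.47 for all. Where a level was lower, fewer cells in S phase and less of these RNAs per cell cannot be told apart in sorted bulk cells. The mouse line, total counts and TMM factors also differed between the Lgr5 libraries and the rest, and their part was not tested.

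**Figure D2:**
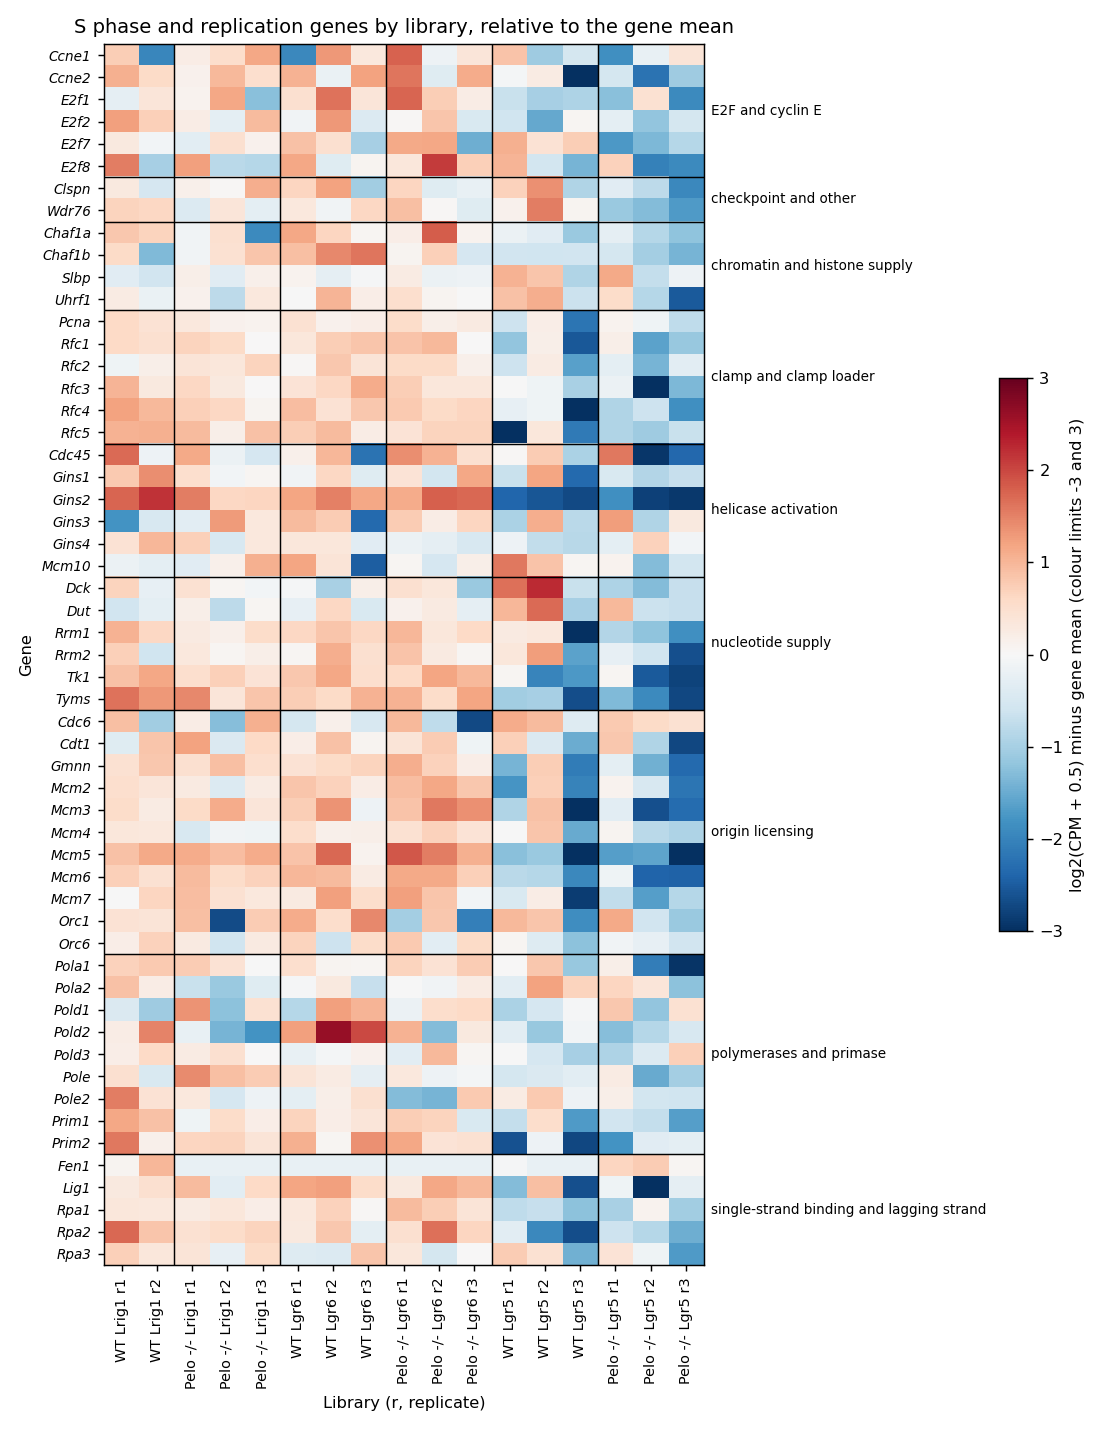
Level of each gene in each library as the log2 difference from that gene's mean, with genes in rows by role and the 17 libraries in columns, and colours limited to -3 and 3. The Lgr5 columns hold most of the low values, and WT Lgr5 replicate 2 is higher than the other Lgr5 columns for many genes.

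The first question was how the 3 populations differed within each genotype. The comparisons set Lrig1 or Lgr6 cells against Lgr5 cells, and differences are given as log2 of Lrig1 or Lgr6 over Lgr5 (± SE) from edgeR's quasi-likelihood test, called at an adjusted p under 0.05 over all 30405 genes. Both comparisons of a genotype use the same 3 Lgr5 libraries, so they are not independent of each other. In WT cells, 6 of 54 genes were higher in Lrig1 than in Lgr5 cells and 0 were lower (all genes: 9.09% higher and 1.99% lower). Against WT Lgr5, 8 were higher in WT Lgr6 cells and 1 was lower (10.6% and 1.57%). In Pelo -/- cells, 4 were higher in Lrig1 cells and 0 lower (5.77% and 2.08%), and 12 were higher in Lgr6 cells and 0 lower (7.23% and 2.72%). The split by direction in the WT comparisons depended on the genes and the scaling used. When the counts were refitted with only the 11061 genes of at least 5 CPM, TMM factors included, 5 were higher and 3 lower in WT Lrig1. In WT Lgr6 cells 4 were higher and 4 lower. Of all genes in this refit, 28.6 and 33.1% were called in either direction. With no TMM factor the numbers were 4 and 3, and 3 and 3 (10.8 and 10.4% of all genes). With both libraries of a TMM factor over 1.5 left out they were 5 and 1, and 3 and 2 (11.3 and 11.1%). The Pelo -/- comparisons had 0 lower calls in each of these settings. Most of the 30405 genes had a mean under 5 CPM, and at a mean of at least 5 CPM the share of all genes called higher was 23.6, 27.3, 14.8 and 18.4% in the same order. Of the 48 replication genes at that level, 6, 7, 4 and 12 were called higher, so their share was below that of all such genes in the first 3 comparisons and above it in Pelo -/- Lgr6 cells, which was not tested.

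Without regard to the test, the estimates of 39, 42, 49 and 48 of the 54 genes were above 0 in these 4 comparisons. Their median was 0.89, 0.82, 1.09 and 1.31, where the median of all 30405 genes was -0.99, -0.49, -0.64 and -0.61. Read from the same fit at a mean of at least 5 CPM, the medians were 0.91, 0.89, 1.11 and 1.28 for the replication genes against 0.70, 0.75, 0.43 and 0.47 for all genes. Of the 48 replication genes of that level, 37, 37, 44 and 43 were above 0, where 70, 71.9, 65.5 and 65.7% of all genes were. The refit with only genes of that level, which centres the median of all genes near 0 (-0.06, -0.04, -0.03 and -0.05), gave 0.21, 0.16, 0.68 and 0.77 for the replication genes. RLE factors gave 0.62, 0.45, 0.96 and 1.12 (all genes -1.36, -0.996, -0.75 and -0.77), and library totals with no TMM factor -0.03, 0.02, 0.58 and 0.68 (all genes -2.00, -1.38, -1.22 and -1.27). The median of the family was thus small or near 0 in the WT comparisons under 2 of these scalings and above 0 in the Pelo -/- comparisons under each of them. Every library of one side lay above every library of the other for 23 genes in WT Lrig1 against Lgr5 and below for 2 (all genes: 19.7% above, 25.3% below). For WT Lgr6 the numbers were 18 and 0 (17.2 and 12.5%), for Pelo -/- Lrig1 27 and 0 (14.3 and 17.8%) and for Pelo -/- Lgr6 cells 27 and 0 (15.5 and 17.3%). Over both genotypes together, the 11 Lrig1 and Lgr6 libraries all lay above the 6 Lgr5 libraries for 9 of 54 genes, namely Rfc4, Mcm6, Tyms, Mcm5, Rpa2, Rfc3, Gins2, Tk1 and Prim2 (all genes: 7.55%), and all below for 0. The shares of non-overlap, here and below, cover all 30405 genes, most of them under 5 CPM. They were not taken for genes of a matched level, so the excess of replication genes over them may reflect level.

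**Figure D3:**
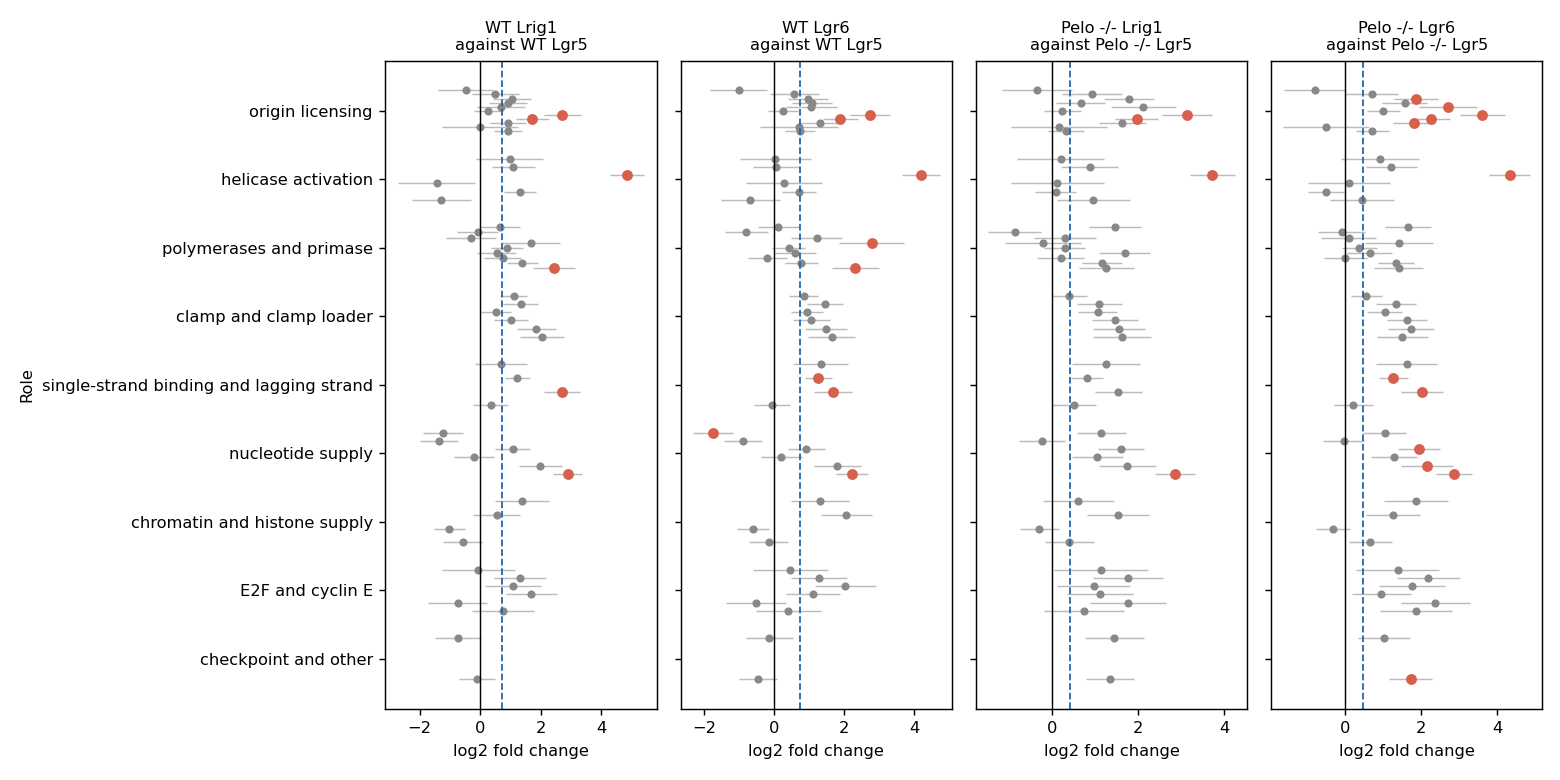
Log2 difference of Lrig1 or Lgr6 against Lgr5 cells for the replication genes in the 4 comparisons, with SE as error bars, red for genes called at an adjusted p under 0.05, and a dashed line at the median of the 11061 genes with a mean of at least 5 CPM. Gins2 stands farthest to the right in each comparison, at 4.86, 4.19, 3.73 and 4.32.

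Among the origin licensing genes, Mcm5 and Mcm6, both subunits of the Mcm2-7 helicase, were higher in Lrig1 and Lgr6 cells than in Lgr5 cells of both genotypes. Mcm5 (chromosome 8, 75109569 to 75128439, plus strand, GRCm38) was at 11.2, 12.4 and 2.01 CPM in the WT Lgr5 group and 8.33, 8.78 and 2.46 CPM in Pelo -/- Lgr5 libraries. It was at 51.2 and 61.0 CPM in WT Lrig1, 59.4, 52.7 and 60.2 in Pelo -/- Lrig1, 49.9, 91.8 and 29.7 in WT Lgr6, with 101, 80.0 and 57.5 in Pelo -/- Lgr6. Every Lgr5 library was thus lower than every other library. The log2 difference was 2.71 ± 0.61 in WT Lrig1 (adjusted p = 0.00331), 2.74 ± 0.57 in WT Lgr6 (0.00153), 3.14 ± 0.58 in Pelo -/- Lrig1 (0.000967) and 3.60 ± 0.60 in Pelo -/- Lgr6 cells (0.000199). Without WT Lrig1 replicate 2 the WT Lrig1 call for Mcm5 was lost, at an adjusted p of 0.0518, and no other omission or setting ended a Mcm5 call.

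Mcm6 (chromosome 1, 128331590 to 128359664, minus strand) was at 32.8, 32 and 14.7 CPM in the WT Lgr5 group and 53.1, 10.6 and 10.4 CPM in Pelo -/- Lgr5 libraries. In the 11 others it was between 68.8 and 129 CPM, again with no overlap. The difference was 1.73 ± 0.53 in WT Lrig1 (adjusted p = 0.0347), 1.90 ± 0.50 in WT Lgr6 (0.0107), 1.97 ± 0.50 in Pelo -/- Lrig1 (0.0131) and 2.24 ± 0.50 in Pelo -/- Lgr6 cells (0.00404). The last of these calls held in every alternative and omission. The WT Lrig1 call was lost without WT Lgr5 replicate 2 (0.0510) or 3 (0.149) or WT Lrig1 replicate 1 (0.146) or 2 (0.209), and the WT Lgr6 call without WT Lgr5 replicate 3 (0.120) or WT Lgr6 replicate 3 (0.0547). The Pelo -/- Lrig1 call was lost without Pelo -/- Lgr5 replicate 2 (0.0815) or 3 (0.0759) or Pelo -/- Lrig1 replicate 1 (0.0518), and both WT calls were lost with no TMM factor.

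A further 3 licensing genes passed the test in Pelo -/- Lgr6 against Pelo -/- Lgr5 cells and missed it in the other 3 comparisons. The helicase subunit Mcm3 was at 52.6, 87.7 and 74.7 CPM in Lgr6 and 23.2, 4.25 and 5.41 CPM in Lgr5 libraries, a difference of 2.71 ± 0.77 (adjusted p = 0.0277). Its sister subunit Mcm7 was at 88.8, 67.6 and 35.3 against 22.4, 11.7 and 20.5 CPM (1.81 ± 0.55, adjusted p = 0.0354). Gmnn, which encodes geminin, the inhibitor of Cdt1 that blocks relicensing, was at 74.7, 56.7 and 40.2 against 28.2, 12.6 and 6.53 CPM (1.86 ± 0.58, adjusted p = 0.0410). None of the 3 genes overlapped between these groups. Each call rested on few libraries: Mcm3 kept it without Pelo -/- Lgr5 replicate 1 or Lgr6 replicate 1 and lost it without any 1 of the other 4 (0.0596 to 0.114), and Mcm7 kept it without Pelo -/- Lgr5 replicate 1 or Lgr6 replicate 3 and lost it without the others (0.0790 to 0.15). Gmnn kept its call only without Pelo -/- Lgr5 replicate 1 (otherwise 0.0512 to 0.166), and Mcm7 and Gmnn lost theirs with no TMM factor.

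In the WT Lgr5 group these genes were highest in replicate 2. Gmnn was at 13.0, 58.5 and 7.83 CPM in the WT Lgr5 group and 47.6 to 61.6 CPM in WT Lrig1 and WT Lgr6 libraries, so that replicate 2 overlapped with them. Mcm3 was at 15.3, 53.0 and 2.45 CPM in WT Lgr5, and Mcm7 at 27.0, 44.1 and 4.79 CPM, with the same library highest. Orc6, of the origin recognition complex the second most abundant licensing gene per kilobase, was at 54.7, 40.6 and 22.2 CPM in WT Lgr5 against 83.9, 34.4 and 78.2 in WT Lgr6 (0.74 ± 0.43, adjusted p = 0.305). The loading factor Cdc6 went the other way in value, at 18.7, 16.5 and 6.20 CPM in WT Lgr5 against 5.66, 9.26 and 5.79 in WT Lgr6 (-0.997 ± 0.81, adjusted p = 0.467). Orc1, Cdt1, Mcm2 and Mcm4 passed in none of the 4 comparisons, with estimates between -0.49 and 1.57. Orc1 was at 0.0603 CPM in Pelo -/- Lrig1 replicate 2 and between 0.372 and 9.31 CPM in the other 16 libraries.

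**Figure D4:**
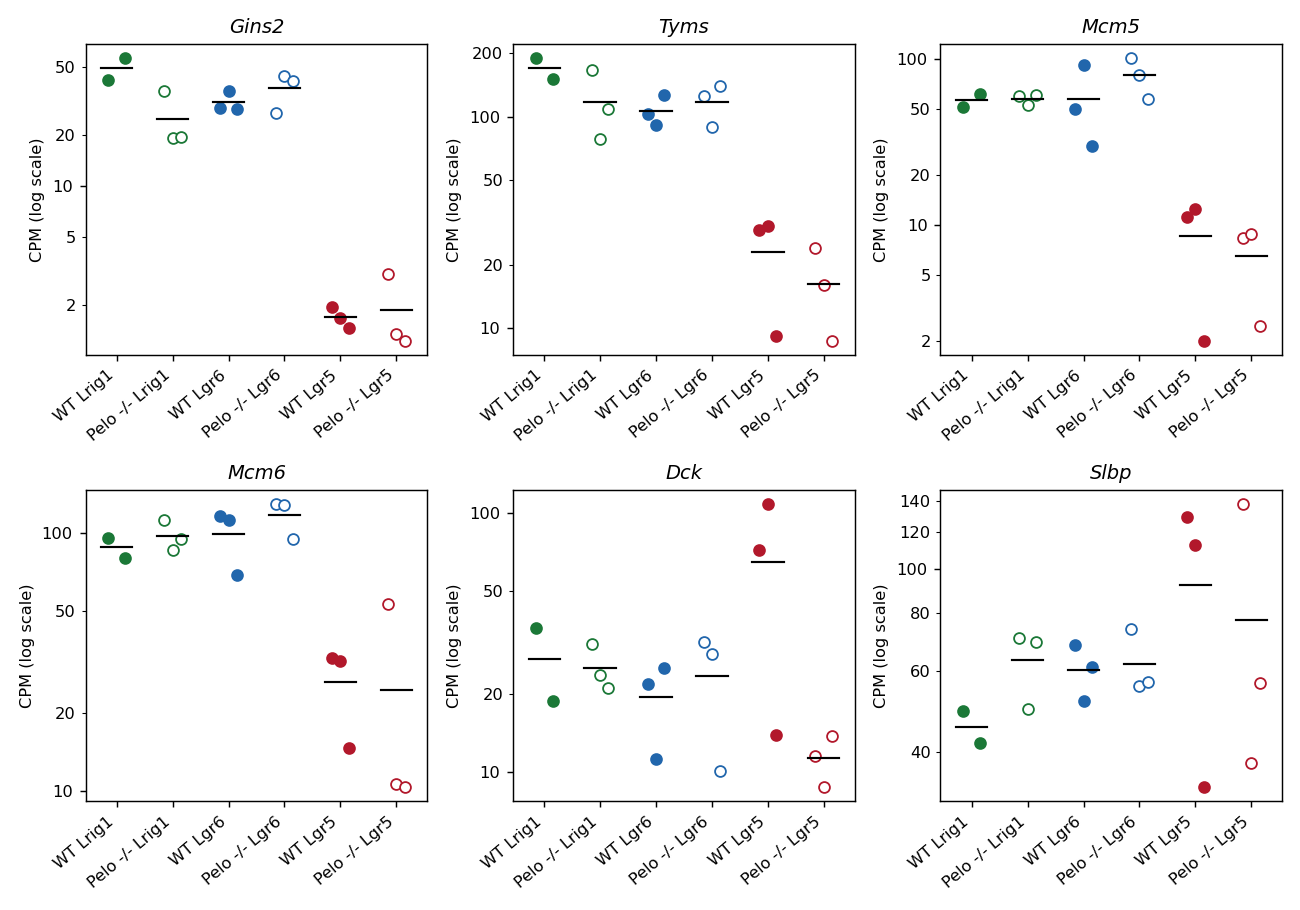
CPM on a log axis for Gins2, Tyms, Mcm5, Mcm6, Dck and Slbp in the 17 libraries, with filled points for WT, open points for Pelo -/- and a bar at each group's mean. Gins2, Tyms, Mcm5 and Mcm6 show no overlap between Lgr5 and the other libraries, whereas Dck and Slbp are highest in some, but not all, Lgr5 libraries.

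Of the helicase activation genes, Gins2 differed more than any other replication gene in each of the 4 comparisons. Gins2 (chromosome 8, 120578633 to 120589304, minus strand) encodes a subunit of GINS, the complex that joins Cdc45 on the Mcm2-7 ring. It was at 1.96, 1.66 and 1.47 CPM in the WT Lgr5 group and 3.05, 1.34 and 1.23 CPM in Pelo -/- Lgr5 libraries. The other 11 libraries lay between 19.1 and 56.7 CPM, with 42.2 and 56.7 in WT Lrig1, 36.4, 19.1 and 19.4 in Pelo -/- Lrig1, 28.8, 36.2 and 28.3 in WT Lgr6, with 27.0, 44.2 and 41.7 in Pelo -/- Lgr6. The difference was 4.86 ± 0.57 in WT Lrig1 (adjusted p = 3.26e-06), 4.19 ± 0.54 in WT Lgr6 (7.39e-06), 3.73 ± 0.52 in Pelo -/- Lrig1 (4.28e-05) and 4.32 ± 0.54 in Pelo -/- Lgr6 cells (6.33e-06). All 4 calls held in every alternative and omission, and with no TMM factor the differences were 3.89, 3.33, 3.25 and 3.82.

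Gins2 shares 67.3% of its exonic length with the opposite-strand gene Gse1. Gse1 read 0.191 to 6.47 CPM and its estimates pointed the other way, at -1.93 ± 1.13, -1.95 ± 0.98, -1.71 ± 0.97 and -2.33 ± 1.00 (adjusted p = 0.248, 0.227, 0.286 and 0.147). The sources used here do not give whether the counting used the strand, so reads of Gins2 and Gse1 cannot be told apart where they overlap. The other 3 GINS subunits did not share this pattern in value. Gins4, the most abundant helicase activation gene per kilobase at 15.4 CPM per kb, was at 17.4, 11.5 and 10.8 CPM in WT Lgr5 against 24.6, 24.9 and 15.3 in WT Lgr6 and was higher in value in Pelo -/- Lgr5 (15.8, 31.8 and 18.4) than in Pelo -/- Lgr6 (17, 15.9 and 13.8), with estimates of 0.71 ± 0.48 and -0.50 ± 0.48 (adjusted p = 0.386 and 0.515). Gins1, Gins3, Cdc45 and Mcm10 had estimates between -1.44 and 1.21 and passed in none.

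Among polymerase and primase genes, the primase subunit Prim2 was higher in both WT comparisons, and the polymerase delta subunit Pold2 in one. Prim2 was at 2.43, 15.6 and 2.23 CPM in WT Lgr5 against 53.6 and 19.5 in WT Lrig1 and 37.0, 18.2 and 46.2 in WT Lgr6. The difference was 2.43 ± 0.70 for WT Lrig1 (adjusted p = 0.0235) and 2.32 ± 0.66 for WT Lgr6 cells (0.0188). In Pelo -/- cells it was 1.27 ± 0.64 and 1.41 ± 0.64 (adjusted p = 0.230 and 0.172). The WT Lrig1 call was lost without WT Lgr5 replicate 1 (0.0872) or 3 (0.115) or WT Lrig1 replicate 1 (0.253), the WT Lgr6 call without WT Lgr5 replicate 1 (0.0882) or 3 (0.126) or WT Lgr6 replicate 3 (0.178), and both with no TMM factor.

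Pold2 was at 1.96, 0.896 and 2.39 CPM in WT Lgr5 against 6.67, 18.4 and 11.6 in WT Lgr6 libraries (2.79 ± 0.93, adjusted p = 0.0477), and lost its call without any 1 of the 6 libraries (0.0510 to 0.157). Prim1, the catalytic primase subunit and the most abundant of these genes at 15.9 CPM per kb, was at 32.3, 76.8 and 16.1 CPM in WT Lgr5 against 119 and 99.0 in WT Lrig1 (1.39 ± 0.51, adjusted p = 0.0791). In the Pelo -/- comparisons 0 of these 9 genes passed, and Pola2, of polymerase alpha, had estimates below 0 in each of the 4 comparisons, from -0.86 to -0.08.

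None of the 6 clamp and clamp loader genes passed the test in these 4 comparisons, although each of them had estimates above 0 in every one. The smallest adjusted p was 0.0657 (Rfc4), 0.0748 (Rfc1), 0.0932 (Rfc3) and 0.0531 (Rfc3). Rfc4 was at 28, 30.5 and 1.63 CPM in WT Lgr5 and 17.7, 21.8 and 9.05 CPM in Pelo -/- Lgr5, and between 35.4 and 78.8 CPM in the 11 others. Its estimates were 1.85 ± 0.65, 1.49 ± 0.60, 1.56 ± 0.60 and 1.73 ± 0.60. Rfc3 likewise did not overlap, at 2.97 to 31.3 CPM in Lgr5 libraries and 31.8 to 68.0 CPM elsewhere. The clamp itself, Pcna, was at 138, 245 and 46.9 CPM in WT Lgr5, 231, 196 and 127 in Pelo -/- Lgr5 and 232 to 327 CPM elsewhere, with WT Lgr5 replicate 2 inside that range.

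Single-strand binding protein holds the opened strands apart, and its Rpa1 and Rpa2 subunits were higher in some comparisons while Rpa3 was not. Rpa2 was at 19.0, 5.89 and 3.37 CPM in WT Lgr5 and 15.2, 13.0 and 8.25 CPM in Pelo -/- Lgr5, and at 19.5 to 79.7 CPM in the 11 others. Its difference was 2.70 ± 0.59 in WT Lrig1 (adjusted p = 0.00291), 1.68 ± 0.54 in WT Lgr6 (0.0417) and 2.02 ± 0.55 in Pelo -/- Lgr6 cells (0.0175), and 1.54 ± 0.54 in Pelo -/- Lrig1 cells (0.0802). The first of these held in every alternative and omission. The WT Lgr6 call held only without WT Lgr5 replicate 1 (otherwise 0.0766 to 0.184), and the Pelo -/- Lgr6 call was lost without Pelo -/- Lgr5 replicate 2 (0.0511) or 3 (0.0833) or Pelo -/- Lgr6 replicate 2 (0.110), and both were lost with no TMM factor.

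Rpa1 was at 29.9, 31.0 and 21.3 CPM in WT Lgr5 and 25.4, 54.6 and 24.3 CPM in Pelo -/- Lgr5, against 63.1, 82.5 and 51.9 in WT Lgr6, with 98.3, 85.5 and 66.6 in Pelo -/- Lgr6. The difference was 1.26 ± 0.38 in both (adjusted p = 0.0274 in WT and 0.0334 in Pelo -/-). The WT call was lost without any 1 of the 6 libraries (0.0515 to 0.131), and the Pelo -/- call without any but Pelo -/- Lgr5 replicate 2 or Lgr6 replicate 3 (0.0820 to 0.145). Rpa3, the most abundant of the group per kilobase, was at 113, 90.3 and 24.2 CPM in WT Lgr5 against 50.1, 49.7 and 119 in WT Lgr6, with estimates of -0.06 to 0.51 in the 4 comparisons. Lig1, the ligase of the lagging strand, was at 9.51, 45.8 and 3.48 CPM in WT Lgr5 against 35.4 to 57.1 CPM in WT Lgr6 (1.33 ± 0.79, adjusted p = 0.322).

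The nucleotide supply genes split. Tyms (chromosome 5, 30058202 to 30073617, minus strand), which encodes thymidylate synthase, was at 29.2, 30.3 and 9.19 CPM in the WT Lgr5 group and 24.0, 16 and 8.73 CPM in Pelo -/- Lgr5 libraries. It was at 189 and 150 CPM in WT Lrig1, 167, 78.1 and 109 in Pelo -/- Lrig1, 103, 91.1 and 127 in WT Lgr6, with 126, 89.1 and 139 in Pelo -/- Lgr6, so that the lowest of these exceeded the highest Lgr5 value. The difference was 2.89 ± 0.49 in WT Lrig1 (adjusted p = 0.000206), 2.22 ± 0.45 in WT Lgr6 (0.00117), 2.86 ± 0.46 in Pelo -/- Lrig1 (0.000221) and 2.86 ± 0.46 in Pelo -/- Lgr6 cells (0.000159). All 4 calls held in every alternative and omission, with 2.00, 1.40, 2.39 and 2.34 when no TMM factor was used.

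Rrm1, the large subunit of ribonucleotide reductase, and Tk1, the thymidine kinase of S phase, passed the test in Pelo -/- Lgr6 against Pelo -/- Lgr5 cells. Rrm1 was at 128, 79.9 and 95.9 against 34.0, 27.3 and 17.2 CPM (1.95 ± 0.55, adjusted p = 0.0234), and Tk1 at 25.0, 38.3 and 32.8 against 17.1, 2.48 and 1.98 CPM (2.15 ± 0.67, adjusted p = 0.0410). Neither gene overlapped between these groups. Rrm1 kept its call without Pelo -/- Lgr5 replicate 1 or Lgr6 replicate 2 and lost it without the others (0.0510 to 0.105), Tk1 kept it only without Pelo -/- Lgr5 replicate 1 (otherwise 0.0618 to 0.160), and both lost it with no TMM factor. In WT Lgr5 libraries Rrm1 was at 76.3, 79.6 and 6.20 CPM, with replicate 3 alone far lower.

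Dck was called lower in WT Lgr6 than in WT Lgr5 cells. Dck (chromosome 5, 88764996 to 88783281, plus strand), the deoxycytidine kinase of the salvage route, was at 71.9, 108 and 13.9 CPM in WT Lgr5 against 21.8, 11.3 and 25.3 CPM in WT Lgr6 (-1.73 ± 0.58, adjusted p = 0.0492). Replicate 3 of WT Lgr5 lay inside the range of the Lgr6 libraries, and the call was lost without any 1 library of the 6 but that one (0.0630 to 0.210). In Pelo -/- cells Dck was at 11.6, 8.78 and 13.8 CPM in Lgr5 and 31.8, 28.5 and 10.1 CPM in Lgr6 libraries (1.04 ± 0.57, adjusted p = 0.257). Dut, the dUTPase, was at 77.1, 126 and 19.1 CPM in WT Lgr5 against 25.8 and 31.4 CPM in WT Lrig1 (-1.38 ± 0.63, adjusted p = 0.153). Rrm2, the small reductase subunit, ranged from 11.5 to 86.6 CPM within WT Lgr5 alone and had estimates of -0.21 to 1.29.

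None of the chromatin and histone supply genes passed in these comparisons. Slbp, which binds the stem-loop of histone mRNAs, was at 129, 113 and 33.7 CPM in WT Lgr5, 138, 37.9 and 56.5 in Pelo -/- Lgr5 and 41.8 to 74.2 CPM in the 11 others. 3 Lgr5 libraries were thus above every other library and 2 were below every other. Its estimates were -1.02 ± 0.52, -0.61 ± 0.46, -0.29 ± 0.45 and -0.32 ± 0.45 (adjusted p = 0.197, 0.429, 0.691 and 0.662). In the refit with genes of at least 5 CPM, Slbp was called lower in WT Lrig1 (-1.71, adjusted p = 0.00872) and WT Lgr6 cells (-1.33, 0.0130), as were Dut (-1.99, 0.0135, and -1.53, 0.0199) and Dck (-1.87, 0.0269, and -2.37, 0.00225), and Pola2 in WT Lgr6 cells (-1.61, 0.0412). With no TMM factor Slbp was likewise called lower in WT Lrig1 (-1.90, adjusted p = 0.00796) and WT Lgr6 cells (-1.41, 0.0182), as were Dut (-2.25, 0.0132, and -1.61, 0.0309) and Dck (-2.10, 0.0305, and -2.55, 0.00183). Chaf1b, a subunit of the chromatin assembly factor CAF-1, had the smallest p of this group in WT Lgr6 against Lgr5 cells, at 3.44, 3.39 and 3.43 CPM in WT Lgr5 and 10.5, 15.4 and 17.2 CPM in WT Lgr6 (2.07 ± 0.73, adjusted p = 0.0663). Chaf1a shares 52.5% of its exonic length with Ubxn6 and is uncertain, and Uhrf1, which guides maintenance methylation of DNA, had estimates of -0.59 to 0.67.

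Of the 6 E2F and cyclin E genes 0 passed in these comparisons. Ccne2, one of the 2 cyclins E that activate Cdk2 at the start of S phase and the most abundant of the group at 5.07 CPM per kb, was at 12.5, 15.7 and 0.326 CPM in WT Lgr5 and 8.97, 2.41 and 5.94 CPM in Pelo -/- Lgr5, against 10.1 to 40.5 CPM elsewhere. Its estimates were 1.32 ± 0.86, 1.29 ± 0.80, 1.77 ± 0.81 and 2.19 ± 0.82 (adjusted p = 0.294, 0.340, 0.192 and 0.0963). The activator E2f1 was at 2.43, 1.86 and 1.96 CPM in WT Lgr5 and 6.08, 14.0 and 5.53 CPM in WT Lgr6 (2.03 ± 0.87, adjusted p = 0.147), with no overlap. E2f2, E2f7, E2f8 and Ccne1 had estimates of -0.74 to 2.37. Of the 2 remaining genes, Wdr76 was higher in Pelo -/- Lgr6 cells, at 27.1, 14.5 and 10.9 CPM against 6.27, 5.52 and 4.07 CPM in Pelo -/- Lgr5 (1.72 ± 0.56, adjusted p = 0.0476). This call held only without Pelo -/- Lgr6 replicate 3 (otherwise 0.0643 to 0.243) and was lost with no TMM factor, and Clspn, the claspin of the replication checkpoint, had estimates of -0.74 to 1.45.

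Lrig1 and Lgr6 cells were then set against each other. In neither genotype did any replication gene pass, and no other gene of the table did (0% of all genes in WT and 0% in Pelo -/-). At an unadjusted p under 0.05 there were 0 replication genes in WT and 0 in Pelo -/- cells. The estimates for Lrig1 over Lgr6 were above 0 for 28 and below 0 for 26 of 54 in WT, with a median of 0.03 (all genes -0.34), and above 0 for 18 and below for 36 in Pelo -/-, with a median of -0.20 (all genes -0.06). The smallest p-values in WT belonged to Chaf1b at -1.52 ± 0.83, the polymerase delta subunit Pold1 at -1.52 ± 0.85 and Rpa2 at 1.02 ± 0.58, and in Pelo -/- to Pold2 at -1.61 ± 0.90, Mcm4 at -0.76 ± 0.43 and Pole, of polymerase epsilon, at 1.04 ± 0.59.

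The second question was whether the replication genes differed between libraries labelled Pelo -/- and WT within a population. In Lrig1, Lgr5 and Lgr6 cells 0 of 54 passed edgeR's test, where 0%, 0.0197% (6 genes) and 0% of all genes did. In Lrig1 cells the estimates for Pelo -/- over WT were above 0 for 20 and below for 34, with a median of -0.21 (all genes -0.02). In Lgr5 cells they were above 0 for 14 and below for 40, with a median of -0.37 (all genes -0.14). At a mean of at least 5 CPM, 13 of 48 were above 0 in Lgr5 cells, with a median of -0.40, where 67.1% of all genes were above 0, with a median of 0.27. In Lgr6 cells they were above 0 for 32 and below for 22, with a median of 0.06 (all genes -0.27). Groups did not overlap, with Pelo -/- above or below, for 4 and 16 genes in Lrig1 (8.17 and 10.7% of all genes, with only 2 WT libraries), 0 and 3 in Lgr5 (3.81 and 4.41%) and 0 and 2 in Lgr6 cells (2.5 and 5.74%).

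In Lgr5 cells the smallest p-values belonged to Dck, Wdr76 and E2f7, all lower in value in the libraries labelled Pelo -/-. Dck was at 71.9, 108 and 13.9 CPM in WT and 11.6, 8.78 and 13.8 CPM in Pelo -/- libraries (-2.50 ± 0.59, adjusted p = 0.166), with WT replicate 3 next to the Pelo -/- values. Wdr76 was at 15.7, 42.3 and 15.1 against 6.27, 5.52 and 4.07 CPM (-2.20 ± 0.56, adjusted p = 0.260), with no overlap. The repressor E2f7 was at 7.08, 4.35 and 5.55 against 0.586, 0.920 and 1.5 CPM (-2.49 ± 0.91, adjusted p = 0.622), also with no overlap. DESeq2 called these 3 genes lower, Dck at -2.60 (adjusted p = 0.0035), Wdr76 at -2.33 (0.0014) and E2f7 at -2.69 (0.0261), and edgeR with no filter on low counts (-2.54, 0.0222) or without WT Lgr5 replicate 3 (-3.04, 0.0408) called Dck, whereas limma-voom called 0. The share of all genes called was 0.622% with DESeq2, 0.172% with no filter, 0.0324% without that library and 0% with limma-voom. On the other side the smallest p-values were those of Gins4, Prim2 and Pold1, with estimates of 0.73 ± 0.48, 0.69 ± 0.64 and 0.73 ± 0.73.

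In Lrig1 cells the smallest p-values were those of Pold2 at -2.39 ± 0.98, Pola2 at -1.33 ± 0.67 and Pole2, of polymerase epsilon, at -1.18 ± 0.61, with Pold1 at 1.34 ± 0.84 and Gins3 at 2.01 ± 1.31 on the other side. Pold2 was at 3.05 and 8.17 CPM in WT and 2.12, 0.663 and 0.389 CPM in Pelo -/- Lrig1 libraries. In Lgr6 cells they were Pold2 at -1.89 ± 0.89, Chaf1b at -1.22 ± 0.71 and Rpa2 at 0.70 ± 0.53, and Pold2 was at 6.67, 18.4 and 11.6 against 5.85, 0.749 and 3.24 CPM. The adjusted p of each was 1. Gins2, Tyms, Mcm5 and Mcm6, which separated Lgr5 cells from the other populations, overlapped between the genotypes of the Lgr5 cells. In Lrig1 cells Gins2 was lower in value in every Pelo -/- library than in either WT library, while Tyms, Mcm5 and Mcm6 overlapped.

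**Figure D5:**
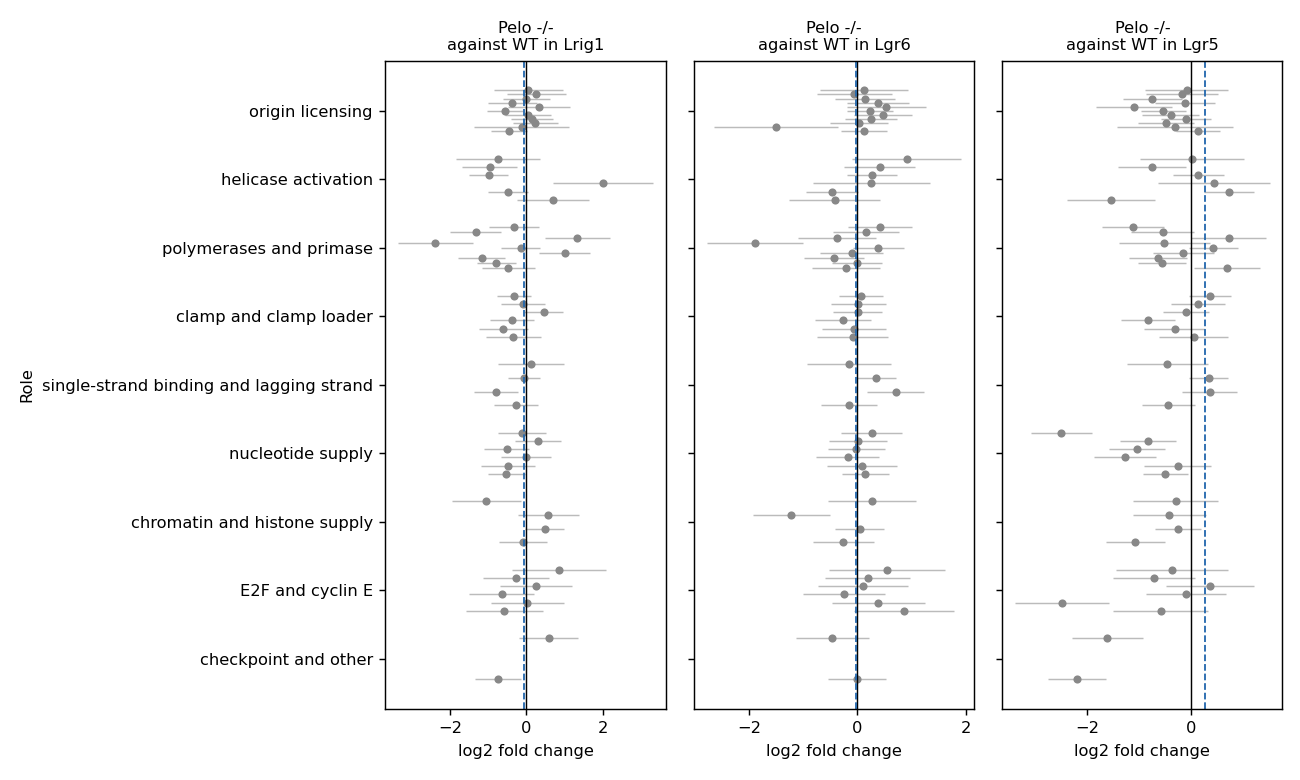
Log2 difference of libraries labelled Pelo -/- against WT for the replication genes in Lrig1, Lgr5 and Lgr6 cells, with SE as error bars and a dashed line at the median of the 11061 genes with a mean of at least 5 CPM. None of the genes is red, since 0 of 54 were called in each population, and Dck at -2.50, E2f7 at -2.49 and Wdr76 at -2.20 lie farthest left in Lgr5 cells.

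Whether the genotype difference itself depended on the population was tested by the difference of the 2 effects. In all 3 such tests 0 of 54 replication genes passed and 0%, 0% and 0% of all genes did. The effect in Lrig1 minus that in Lgr5 cells was 2.39 ± 0.87 for Dck (adjusted p = 0.894), and the effect in Lgr6 minus that in Lgr5 cells was 2.77 ± 0.81 for Dck (0.770), 2.19 ± 0.77 for Wdr76 (0.822) and 2.88 ± 1.24 for E2f7 (0.979). The effect in Lrig1 minus that in Lgr6 cells had its smallest p for Rpa2 (-1.49 ± 0.79) and Gins2 (-1.26 ± 0.69). On all genes DESeq2 called 62 and 56 in the tests against Lgr5, and edgeR with no filter on low counts 25 and 28, and none of these were replication genes.

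Other genes of the replication pathway were taken from a list of 67 beyond the 55, covering repair-linked nucleases, histone chaperones and checkpoint kinases. All 67 were tested. In the 4 comparisons with Lgr5 cells, in the order above, 5, 6, 5 and 4 were called higher and 1, 2, 0 and 1 lower, where 9.09, 10.6, 5.77 and 7.23% of all genes were called higher. Their medians were 0.11, 0.12, 0.34 and 0.50 (all genes -0.99, -0.49, -0.64 and -0.61). The count called higher was near the share of all genes and is no result about the list. Asf1b, a histone chaperone that hands histones H3 and H4 to CAF-1, was at 0.645 to 7.15 CPM in Lgr5 libraries and 21.3 to 69.7 CPM elsewhere, with differences of 3.70 ± 0.70, 3.95 ± 0.68, 5.17 ± 0.73 and 5.53 ± 0.74. Rnaseh2a, the catalytic subunit of the RNase that removes ribonucleotides from DNA, was higher in WT Lgr6 (3.32 ± 0.75), Pelo -/- Lrig1 (2.53 ± 0.73) and Pelo -/- Lgr6 cells (2.78 ± 0.74). The p130 gene Rbl2, which with E2F4 represses these genes in resting cells, was higher in the WT comparisons (3.47 ± 0.67 and 3.52 ± 0.64). Pole4, a small polymerase epsilon subunit, was lower in WT Lrig1 (-1.86 ± 0.44), WT Lgr6 (-1.75 ± 0.37) and Pelo -/- Lgr6 cells (-1.63 ± 0.37).

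Genes of the later cycle phases and of its brakes were measured in the same libraries. Of 20 G2 and mitosis genes, all tested, 1, 2, 0 and 3 were called higher in the 4 comparisons and 0 lower (all genes called higher: 9.09, 10.6, 5.77 and 7.23%). They were Prc1, which bundles the spindle midzone, in both WT comparisons (2.65 ± 0.61 and 2.40 ± 0.57), the kinase gene Aurka in WT Lgr6 (2.45 ± 0.78) and Pelo -/- Lgr6 cells (3.24 ± 0.80), and cyclin B2 (Ccnb2, 3.19 ± 0.81) and Nusap1 (2.11 ± 0.58) in Pelo -/- Lgr6 cells. Their summed level was 453, 555 and 62.6 CPM in WT Lgr5, 368, 113 and 94.0 CPM in Pelo -/- Lgr5 and 223 to 711 CPM elsewhere, so that WT Lgr5 replicates 1 and 2 and Pelo -/- Lgr5 replicate 1 lay inside the range of the others. Of 8 genes of CDK inhibitors, which hold the cycle back, Cdkn1a (p21) was higher in Lrig1 and Lgr6 cells in each comparison (4.37 ± 0.54, 4.80 ± 0.53, 3.24 ± 0.50 and 3.83 ± 0.51), at 85.8 to 173 CPM against 1.58 to 15.4 CPM in Lgr5 libraries. Cdkn1a is 1 gene of the 8, so its difference does not describe the list (all genes called higher: 9.09, 10.6, 5.77 and 7.23%). Cdkn2b (p15) was at 0.337, 0.448 and 0.163 CPM in WT Lgr5 and 8.97, 18.5 and 7.76 CPM in Pelo -/- Lgr5 libraries, and was the only CDK inhibitor gene called between genotypes (5.19 ± 0.91, adjusted p = 0.0366), on an estimate that rests on WT levels near 0. The Cdkn2b call was lost with protein-coding genes only, limma-voom or only the groups compared, where 0 of all genes were called in this comparison.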

How the data were processed

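Raw counts per gene, deposited by the authors for 17 libraries, were used. Per the submitters' processing notes, STAR and edgeR were used with GRCm38 (mm10). The sources used here do not give the counting tool, its use of strand or the annotation. Of 48820 Ensembl identifiers, 48058 were matched without version to the reference annotation (GENCODE M21, GRCm38), which gave symbols, coordinates and exonic lengths. Counts were fitted in R 4.3.3 with edgeR 4.0.16 (TMM factors, filterByExpr, minimum count 10, minimum total 15, robust quasi-likelihood F test, 1 coefficient for each of 6 groups), and p-values were adjusted by Benjamini-Hochberg over the 30405 genes of each comparison and called at an adjusted p under 0.05. The SE is the log2 difference divided by the root of F, and the common dispersion was 0.537. CPM are TMM-scaled, and CPM per kb divide by the union of exons. No 2 libraries agreed within sampling noise (smallest chi-square per degree of freedom 38.5 over 136 pairs).

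The genes and lists were chosen with earlier results of these data known. In each comparison up to 8 called genes a direction with the smallest p were named, or, where none was called, up to 3 as values, with the most abundant gene per kilobase of each role and that with the smallest p in WT Lgr6 against WT Lgr5. The marker lists were basal keratinocyte, bulge and germ, sorted receptor, melanocyte, Langerhans cell and macrophage, T cell, fibroblast, endothelial, and Merkel and neural genes. The 6 basal keratinocyte genes summed to 3766 to 8830 CPM in Lgr5 libraries against 13057 to 24383, the 8 bulge and germ genes to 4714 to 10192 against 5818 to 9592, and the 3 receptor genes to 388 to 682 against 108 to 258. Alternatives were RLE factors, no filter, a mean of at least 5 CPM, protein-coding genes only, DESeq2 1.42.0, limma-voom 3.58.1, only the groups compared, a replicate block and leaving out each library. The omission of both libraries with a TMM factor over 1.5, and library totals with no TMM, were added after seeing the data. The scripts were tested on simulated data.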

Additional observations from a re-analysis of the deposited data

How the results depend on the processing

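The numbers of replication genes called in WT Lrig1, WT Lgr6, Pelo -/- Lrig1 and Pelo -/- Lgr6 against the Lgr5 cells of their genotype were 6, 9, 4 and 12. Of all genes 11.1, 12.2, 7.85 and 9.95% were called, a share that percentages in parentheses give below. The numbers of replication genes moved by more than 1.5 times as follows, and the cause was not tested. With no filter on low counts Pelo -/- Lrig1 gave 8 (6.06%) and the genotype comparison in Lgr5 cells 1 (0.172%). DESeq2 gave 10 and 3 for the same pair (15.1 and 0.622%), and limma-voom 13, 15 and 10 for the first 3 comparisons (16.7, 15.1 and 9.9%). With only the groups compared WT Lgr6 gave 4 (12%). With both libraries of a TMM factor over 1.5 left out WT Lgr6 gave 5 (11.1%) and Pelo -/- Lrig1 7 (8.43%). Library totals with no TMM gave 5 in Pelo -/- Lgr6 (10.2%). The replicate block gave 7 in Pelo -/- Lrig1 (7.7%). RLE factors moved none of the 4 by more than 1.5 times, with 5, 6, 4 and 8 (10.1, 10.3, 7.32 and 9.44%). Leaving out 1 WT Lgr5 library gave 4 to 14 in WT Lrig1 (9.14 to 12.8%). Leaving out 1 library gave 3 to 14 in WT Lgr6 (6.46 to 11.5%), 3 to 12 in Pelo -/- Lrig1 (4.57 to 8.58%) and 4 to 16 in Pelo -/- Lgr6 (6.66 to 10.6%). For genotype in Lgr5 cells it gave 0 to 1 (0.0274 to 0.0678%). The highest counts were 14 and 14 without WT Lgr5 replicate 2 (12.8 and 11%), and 12 and 16 without Pelo -/- Lgr5 replicate 1 (8.58 and 10.6%). WT Lgr6 gave 4 without WT Lgr5 replicate 3 (9.09%), 5 without WT Lgr6 replicate 1 or 2 (10.3 and 10.6%), and 3 without WT Lgr6 replicate 3 (6.46%). Pelo -/- Lgr6 gave 5 and 4 without Pelo -/- Lgr5 replicates 2 and 3 (6.92 and 7.11%). It gave 6 and 5 without Pelo -/- Lgr6 replicates 1 and 2 (6.66 and 7.07%). The genotype count of 1 in Lgr5 cells came without WT Lgr5 replicate 3. No called gene changed sign, and in the other 7 comparisons 0 replication genes were called under every alternative run. Over the 10 settings that keep every library or leave out both of a TMM factor over 1.5, a call was lost in 3 and 6 for Prim2 and Mcm6 in WT Lrig1, in 3, 3, 8, 7 and 3 for Mcm6, Prim2, Rpa1, Rpa2 and Dck in WT Lgr6, in 1 for Mcm6 in Pelo -/- Lrig1, and in 1, 1, 6, 3, 5, 4 and 8 for Rpa2, Rrm1, Rpa1, Mcm7, Tk1, Gmnn and Wdr76 in Pelo -/- Lgr6, and Pold2 in WT Lgr6 lost its call in 6 of 9.

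Deviations of same-numbered libraries correlated at -0.188 to 0.225 over 40 pairs, 5 of them over 0.1. Of the 8 pairs within a population 7 were above 0 and 4 over 0.1. In Lgr6 cells same-numbered WT and Pelo -/- libraries correlated at 0.0457, 0.115 and 0.105, and different-numbered ones at -0.115 to 0.0164. In Lgr5 cells the values were 0.119, -0.0860 and 0.225 against -0.300 to 0.215, and in Lrig1 cells 0.0153 and 0.0669 against -0.0669 to 0.0480. The deviations of the 2 WT Lrig1 libraries mirror each other, so -0.0153 and -0.0669 are those same values with the sign reversed. Deviations sum to 0 in every group, so same-numbered and different-numbered values are not independent. Since not every pair exceeded 0.1 and the labels give no pairing, the numbers were not taken to pair the samples. These values do not show that the samples were unpaired. With the replicate block the counts of replication genes called were 6, 10, 7 and 15 (all genes: 10.3, 12.1, 7.7 and 9.51%). What depth alone limits was not tested.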
